A study of Mus musculus with 503 samples.

Results

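Cells of the GLAST lineage that carried transcripts of dividing cells were compared with cells of the same lineage that carried almost none, after a complete crush of the mouse spinal cord. Single cells were sorted as tdTomato+EGFP+ from *GLAST-CreERT2*;*R26R-tdTomato*;*Pdgfrb-eGFP* mice, in which tamoxifen switches on a Cre recombinase driven by the GLAST gene (*Slc1a3*, a glutamate transporter), Cre turns on the red reporter tdTomato for good, and EGFP marks cells that use *Pdgfrb*, a receptor gene of the mural cells and fibroblasts that lie around vessels. In each cell the CPM (counts per 1000000 counts of that cell) of *Mki67*, *Top2a*, *Ccnb1*, *Cdk1* and *Birc5* were summed. The members were thus chosen by their own transcript levels: a cell was called cycling at a sum of 200 CPM or more and non-cycling under 50 CPM, among cells with at least 20000 counts. Among the injured tdTomato+EGFP+ cells 22 were shallower, and the other 100 split into 66 cycling, 22 non-cycling and 12 intermediate cells. The comparison therefore covers 88 of the 503 cells of the series.

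All mice carried the 3 transgenes, with no animal lacking them as a control, and the labels give every animal as female. The groups were uninjured cord and cord at 3 days after the crush, each sorted into tdTomato+EGFP+ cells and tdTomato-EGFP+ cells, the latter being perivascular cells outside the recombined lineage. The labels of the injured cells give 3 days, whereas the description of the series gives 5 days, and the labels were followed. The red label records *GLAST* activity at the time of tamoxifen, before the injury, and not at the sort. No label names an animal, so all cells of a group were treated as 1 sample: neither a test nor a p-value was computed, and cells are not replicates of the injury. Uninjured cells lay on other plates than injured cells, so injury and plate cannot be told apart. Both classes described here lay on the same 2 plates, 211 and 215.

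A dividing cell passes through G1, in which it commits to a round of division, S phase, in which the genome is copied once from licensed origins, G2, and mitosis (M), in which spindle and kinetochores pull the copies apart before cytokinesis splits the cell. Many S-phase genes are driven by E2F factors once cyclin-dependent kinases (CDKs) have disarmed the RB proteins, and many mitotic genes are driven later by a complex that binds a short promoter element called the CHR, often with NF-Y at a CCAAT box nearby. Cells at rest hold this programme down, in part through CDK inhibitors. In the injured spinal cord, perivascular cells leave the vessel wall and multiply to build the fibrotic core of the scar.

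The letters of these promoter elements can be read in genes that differed between the classes. The 3 replication genes shown first hold an E2F element in capitals, and the 3 mitosis genes shown after them hold a CHR in capitals, with CCAAT boxes in capitals where present. They were picked by the size of their difference in level, among genes of each group called higher in cycling cells by the size rule below. Only genes with a match in the bases shown were taken, and a single chromosome was left out of the choice. The windows are the 120 bases before a RefSeq start, on the gene's strand, in build GRCm38.p6. Where a gene has several starts, a start with a match is shown.
*Orc1*, chr4:108579334-108579453, plus strand: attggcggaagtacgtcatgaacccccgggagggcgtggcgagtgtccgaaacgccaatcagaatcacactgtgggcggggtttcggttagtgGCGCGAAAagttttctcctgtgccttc
*Rfc3*, chr5:151651209-151651328, minus strand: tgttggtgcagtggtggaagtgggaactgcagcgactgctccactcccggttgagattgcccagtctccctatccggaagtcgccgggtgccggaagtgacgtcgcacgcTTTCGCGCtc
*Gins3*, chr8:95633439-95633558, plus strand: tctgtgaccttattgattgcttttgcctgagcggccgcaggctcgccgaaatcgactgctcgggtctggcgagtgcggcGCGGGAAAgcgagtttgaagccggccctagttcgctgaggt
*Ube2c*, chr2:164769809-164769928, plus strand: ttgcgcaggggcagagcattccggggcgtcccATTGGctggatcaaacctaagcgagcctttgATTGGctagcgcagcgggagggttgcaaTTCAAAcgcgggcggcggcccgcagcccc
*Kif2c*, chr4:117178773-117178892, minus strand: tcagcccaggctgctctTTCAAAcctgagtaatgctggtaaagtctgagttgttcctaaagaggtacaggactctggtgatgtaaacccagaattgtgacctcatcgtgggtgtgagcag
*Kif22*, chr7:127042421-127042540, minus strand: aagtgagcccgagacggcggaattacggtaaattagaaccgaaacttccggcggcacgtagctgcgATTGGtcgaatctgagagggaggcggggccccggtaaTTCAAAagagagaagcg

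Depth and quality of the 2 classes were of the same order. Cycling cells held 30468 to 686905 counts with a median of 328930, and non-cycling cells 30612 to 406240 with a median of 254572. Mitochondrial transcripts took a median of 1.02% of the counts of cycling cells and 0.973% of those of non-cycling cells. Plate 215 gave 7 cycling and 3 non-cycling cells, so plate 211 held 95.8% of the 22268505 counts of the cycling class and 91.4% of the 5979361 counts of the non-cycling class. Both classes held transcripts of the sorted kind of cell. Endothelial genes, which reached 11226 CPM in a cycling and 21317 CPM in a non-cycling cell, are given with the pericyte genes. *Pdgfrb* was at 190 to 3977 CPM with a median of 1052 in cycling cells and at 144.3 to 4271 CPM with a median of 1262 in non-cycling cells, and summed over cells it was at 1206 and 1247 CPM. *Col1a1*, the fibrillar collagen of fibroblasts, reached 100 CPM in 64 of 66 cycling cells and 19 of 22 non-cycling cells. Markers of immune cells were scarce: of 12 genes, 1 reached 10 CPM in a class (*Csf1r*, at 11 and 12.5 CPM), *C1qa* was at 0, and *Ptprc*, *Aif1* and *Cx3cr1* were under 1 CPM in both. The astrocyte and oligodendrocyte genes *Olig1* and *Olig2* and the ependymal gene *Tmem212* were at 0, and *Gfap* and *Mbp* were under 1 CPM in both classes. The members of these 2 lists that reached 10 CPM were *Pdgfra*, which fibroblasts use as well, *S100b* at 0.898 CPM in cycling and 36.6 CPM in non-cycling cells, *Rarres2*, which encodes chemerin, at 51.5 and 192 CPM, and *Tubb3* at 470 and 176 CPM. Their part in the differences below was not tested.

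The share of cycling cells was 66% of the injured tdTomato+EGFP+ cells (exact binomial 95% interval 55.8 to 75.2%, which like all intervals here covers counting error only). It was 67.8% on plate 211 (56.9 to 77.4%) and 53.8% on plate 215 (25.1 to 80.8%), where 13 cells were deep enough. Injured tdTomato-EGFP+ cells, sorted onto the same plates, held 31 cycling, 6 intermediate and 67 non-cycling cells, which is a cycling share of 29.8% (21.2 to 39.6%). Uninjured tdTomato+EGFP+ cells held 1 cycling cell, or 0.690% (0.0175 to 3.78%) of those deep enough, and tdTomato-EGFP+ cells of uninjured cord 0 of 100, which allows a share of up to 3.0% by the limit of 3 counts and 3.62% by the exact interval. The cell nearest above the upper threshold stood at 207 CPM and the cell nearest below it at 200 CPM (199.969). At the lower threshold the nearest cells stood at 56.6 and 48.8 CPM, which rest on 20 and 12 counts. When each cell was thinned to 20000 counts, 92 of 100 cells kept their class: all 66 cycling cells did, while 4 of 22 non-cycling cells moved into the intermediate range.

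The 5 genes that defined the classes are given as a description of the choice. *Ccnb1*, the cyclin that starts mitosis with CDK1, had a count in 66 of 66 cycling cells and in 3 of 22 non-cycling cells. Summed over the cells of a class, *Ccnb1* was at 326 and 1.17 CPM and *Cdk1* at 245 and 2.01 CPM. *Top2a*, the topoisomerase that untangles replicated chromosomes, was at 232 and 4.52 CPM, and *Birc5*, a subunit of the chromosomal passenger complex, at 194 and 4.35 CPM. *Mki67*, the Ki-67 antigen of dividing cells, was at 106.5 and 0.167 CPM. The sum of the 5 had a median of 707 CPM over cycling cells, from 207 to 4551 CPM, and of 5.62 CPM over non-cycling cells, from 0 to 48.8 CPM. These genes were left out of every list and every count that follows.

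Genes outside the rule were compared by the difference of log2(CPM + 1) between the counts summed over each class, a scale that understates differences of genes near 1 CPM. A gene was called higher or lower in cycling cells at a log2 difference of at least 1 in size, at 10 CPM or more in the higher class and with the same sign in the mean of the cells' own CPM. With 1 sample a class this is a rule of size and no test. Levels set against each other below are CPM summed over the cells of a class, cycling first and non-cycling second. Among the 10108 genes at 10 CPM or more in either class, 1041 (10.3%) were called higher in cycling cells and 1668 (16.5%) lower. Every count of list members called below is to be read beside these shares. The scaling moves this split: with TMM factors it was 1692 higher and 1197 lower, and with DESeq2 size factors 1753 and 1158, since the median difference of all genes was −0.07 per CPM, 0.20 with TMM and 0.22 with DESeq2. Lists whose median lies within this shift are given below as values without a direction. Of the genes called higher, 188 belonged to the cell cycle lists, and of those called lower 0 did.

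Transcripts of the DNA replication machinery were at higher levels in cycling cells throughout the list of origin licensing and firing: 18 of 19 measured genes were called higher and 0 lower, with a median log2 difference of 2.76 against −0.07 over all genes. *Mcm5*, a subunit of the MCM helicase loaded at origins, was at 0 to 882 CPM with a median of 250 in cycling cells, and at 0 to 96.1 CPM with a median of 0 in non-cycling cells. In 49 of 66 cycling cells it lay above every non-cycling cell, so the classes overlapped at the low end. Its summed level was 264 CPM (exact Poisson 95% interval 257 to 271) against 14.9 CPM (11.95 to 18.3), 17.7-fold higher. *Mcm6*, of the same ring, differed less, at 355 against 153.9 CPM, and *Gins4*, a subunit of the active helicase, was the gene of the list that was not called, at 59.3 against 32.4 CPM. *Gmnn* encodes geminin, which stops origins from being licensed again, and was at 47.7 CPM against 0.669 CPM.

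*Orc1*, *Rfc3* and *Gins3*, whose promoters are printed above, differed less than *Mcm5* and *Gmnn*. *Orc1*, the origin recognition subunit that comes and goes with the cycle, was at 17.6 CPM in cycling and 1.17 CPM in non-cycling cells, 15.1-fold higher. *Rfc3*, a subunit of the clamp loader, was at 75.2 against 11.7 CPM and *Gins3* at 21.02 against 7.69 CPM.

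Of 30 measured genes of DNA polymerases and the fork, 28 were called higher, with a median of 2.68. *Pcna*, the sliding clamp, was at 0 to 624 CPM (median 150.8) in cycling cells and at 0 to 165 CPM (median 38.2) in non-cycling cells. The classes overlapped widely for this gene, since 19 of 22 non-cycling cells also had a count, and its summed level was 180 against 39.8 CPM. *Fanci*, of the Fanconi repair pathway, was not called, at 22.5 against 20.2 CPM.

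Genes that supply nucleotides had 12 of 15 members called higher and a median of 2.32. *Rrm2*, the regulatory subunit of ribonucleotide reductase, was at 0 to 1775 CPM with a median of 461 in cycling cells and at 0 to 43.98 CPM with a median of 0 in non-cycling cells. It lay above every non-cycling cell in 62 of 66 cycling cells, and its summed level was 495 against 6.02 CPM, 82.2-fold higher. *Rrm1*, the large subunit of the same enzyme, was at 326 against 36.96 CPM, *Tk1*, thymidine kinase, at 113.9 against 3.68 CPM, and *Tyms*, thymidylate synthase, at 156.8 against 24.9 CPM. *Tyms* had a count in 66 of 66 cycling cells and in 16 of 22 non-cycling cells.

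Factors that package newly copied DNA had 16 of 19 members called higher, with a median of 2.56. *Hmgb2*, a chromatin protein of proliferating cells, was at 40.3 to 797 CPM (median 273) in cycling cells and at 0 to 90.2 CPM (median 18.7) in non-cycling cells, and 61 of 66 cycling cells lay above every non-cycling cell. *Chaf1b*, of the histone chaperone CAF-1, was at 58.2 CPM and had no count in the 22 non-cycling cells, which allows up to 0.502 CPM there, and *Uhrf1*, which carries DNA methylation through replication, was at 155.8 against 13.5 CPM.

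The G1/S regulators were split. Of 16 measured, 8 were called higher and 0 lower, with a median of 1.27. *Cks1b*, a small CDK partner, was at 91.8 to 794 CPM (median 324) in cycling cells and at 0 to 157.05 CPM (median 30.99) in non-cycling cells, so that 58 of 66 cycling cells lay above every non-cycling cell. *Ccne2*, cyclin E2, was at 69.8 against 5.18 CPM and *Ccnd1*, cyclin D1, at 84.4 against 25.6 CPM. The D-cyclin kinases differed by less than the size rule: *Cdk4* was at 635 against 374 CPM and *Cdk6* at 48.9 against 45.8 CPM. *Ccnd2*, cyclin D2, was at 42.9 against 53.7 CPM and *Myc*, a growth regulator, at 59.2 against 36.5 CPM, with neither called.

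Genes of mitosis showed the largest differences of the lists. The classes were cut by genes that include *Ccnb1*, *Cdk1* and *Birc5* of mitosis. The order of mitosis over replication lists is thus not independent of the rule. Nor are the higher levels of both kinds of list, the counts of cycling cells above every non-cycling cell, and the place of the intermediate cells. Genes that vary with the rule genes from cell to cell differ through the choice of the classes, so these values describe that choice. Mitotic entry and exit had 23 of 24 members called higher (median 3.9), kinetochore and checkpoint 32 of 34 (4.37), spindle and kinesins 31 of 32 (4.38), and cytokinesis 12 of 12 (4.66). Where genes without a count in non-cycling cells are set at the limit of 3 counts, the medians of the kinetochore and spindle lists become 4.16 and 4.10. *Plk1*, the Polo-like kinase of mitotic entry, was at 0 to 795 CPM with a median of 180 in cycling cells and at 0 to 65.3 CPM with a median of 0 in non-cycling cells. It was detected in 60 of 66 cycling and 4 of 22 non-cycling cells, and its summed level of 268 CPM (261 to 275) stood against 1.51 CPM (0.688 to 2.86), 178-fold higher.

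*Cdc20*, which activates the anaphase-promoting complex, was at 0 to 1428 CPM (median 391) in cycling cells and at 0 to 68.6 CPM (median 0) in non-cycling cells. Of the 66 cycling cells, 56 exceeded the highest non-cycling cell. *Ube2c*, the ubiquitin-conjugating enzyme of that complex and 1 of the genes with both CHR and CCAAT letters above, was at 198 against 1.34 CPM, with a cycling range of 0 to 962 CPM. *Pttg1*, securin, which the complex destroys, was not called at 29.1 against 33.6 CPM, and had a median of 23.98 CPM over cycling and 25.3 CPM over non-cycling cells.

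At the kinetochore, *Mad2l1*, which holds anaphase until chromosomes are attached, was at 12.2 to 432 CPM (median 126.1) in cycling cells and at 0 to 25.7 CPM (median 0) in non-cycling cells, with 63 of 66 cycling cells above every non-cycling cell. *Bub1b*, a kinase-like protein of the same checkpoint, was at 132.8 against 0.836 CPM. *Nuf2*, of the microtubule-binding NDC80 complex, was at 81.1 CPM and had 1 count in the non-cycling class. *Zwint*, an outer kinetochore protein, was not called: it was detected in all 66 and all 22 cells, at 268 against 160 CPM.

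Among motors and spindle proteins, *Kif22*, which pushes chromosome arms away from the poles, was at 0 to 718 CPM (median 132.7) in cycling and at 0 to 12.2 CPM (median 0) in non-cycling cells, and 58 of 66 cycling cells lay above every non-cycling cell. *Kif2c*, which removes tubulin from microtubule ends, was at 103.3 CPM against 0.334 CPM, the latter from 2 counts of 1 cell. *Tpx2*, an activator of Aurora A, was at 195 against 2.01 CPM. *Tubb5*, a tubulin used outside mitosis as well, was at 3707 against 1395 CPM. *Psrc1*, a spindle gene that was not called, was at 17.02 against 11.7 CPM, and 1 non-cycling cell held 81.4% of the counts of that class. In cytokinesis, *Prc1*, which bundles the microtubules of the midzone, was at 211 against 1.84 CPM, and *Anln*, anillin of the contractile ring, at 140 against 1.34 CPM. Condensins and cohesins had 10 of 19 members called higher (median 1.53), beside 10.3% of all genes. *Ncapg*, a subunit of mitotic condensin, was at 57.2 CPM with 1 count in non-cycling cells, whereas *Smc3*, of the cohesin ring that acts in resting cells too, was at 123.4 against 104.7 CPM.

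**Figure D1:**
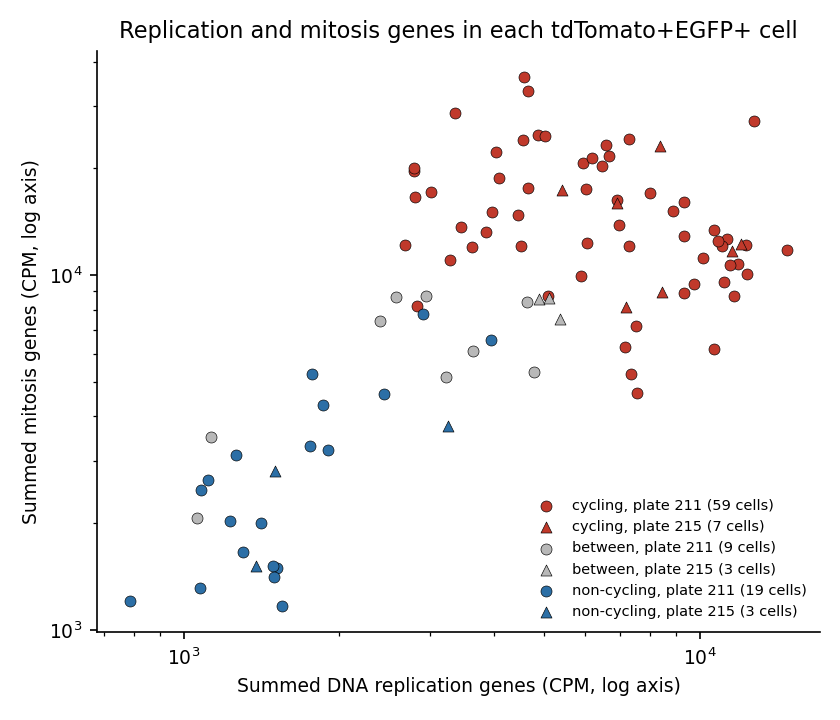
Each point is 1 injured tdTomato+EGFP+ cell, with the summed CPM of 66 DNA replication genes on the horizontal log axis and of the genes of the 4 mitosis lists on the vertical log axis; colour gives the class and shape the plate. Cycling cells spread over 2683 to 14761 CPM of replication and 4666 to 36139 CPM of mitosis genes, the medians of the intermediate cells lie between those of the classes, and 3 non-cycling cells reach the cycling range on each axis.

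Per cell, the replication genes (66 genes of licensing, fork and nucleotide supply) summed to 2683 to 14761 CPM with a median of 6914 in cycling cells and to 787 to 3939 CPM with a median of 1499 in non-cycling cells. The mitosis genes (all genes of the 4 mitotic lists) summed to 4666 to 36139 CPM with a median of 13293 in cycling cells and to 1168 to 7782 CPM with a median of 2566 in non-cycling cells. This sum includes *Tubb5*, a tubulin used outside mitosis as well, with medians of 3747 CPM in cycling and 1162 CPM in non-cycling cells. *Tubb5* reached 4761 CPM in a non-cycling cell, and its part in the overlap of the sums was not tested. Non-cycling cells overlapped the cycling range in 3 of 22 cells for each sum, and 55 of 66 cycling cells exceeded every non-cycling cell for replication and 61 of 66 for mitosis. The 12 intermediate cells, with rule sums of 56.6 to 200 CPM, had medians of 3429 and 7472 CPM, between those of the classes, but spread widely: 5 of 12 exceeded every non-cycling cell for each sum, and the lowest, at 1062 and 2067 CPM, lay below both non-cycling medians. The replication sum exceeded the mitosis sum in 14 of 66 cycling cells and in 3 of 22 non-cycling cells. For either sum 0 of 66 cycling cells fell under 1000 CPM, but the lowest non-cycling cells stood at 787 and 1168 CPM. That cut and the order of 2 sums over different genes cannot tell whether cycling cells fall into replicating and dividing cells. The genes of both programmes together, *Tubb5* included, took a median of 2.25% of the counts of a cycling cell and 0.367% of those of a non-cycling cell.

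**Figure D2:**
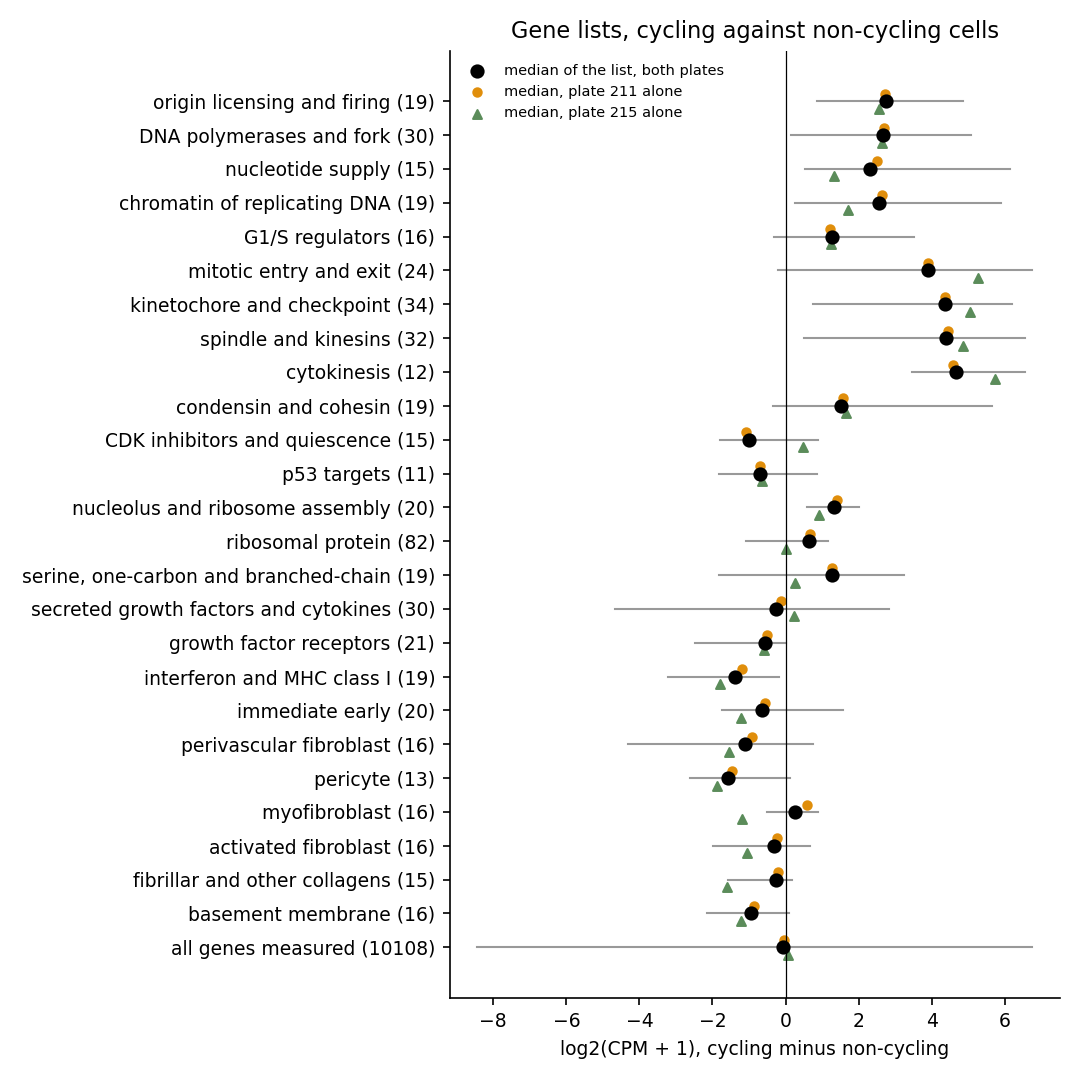
Black points give the median difference of log2(CPM + 1), cycling minus non-cycling, over the measured genes of each list (number in parentheses), grey lines the lowest and highest gene, and orange circles and green triangles the medians on plates 211 and 215 alone. The mitosis lists lie at 3.9 to 4.66, the interferon, pericyte and perivascular fibroblast lists at −1.39, −1.59 and −1.12, and all genes at −0.07; the CDK inhibitor list has opposite signs on the 2 plates.

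Genes outside the cell cycle lists with the largest higher levels in cycling cells included further genes of division. *Pclaf*, a PCNA-binding factor, was at 9.601 to 549 CPM (median 186) in cycling cells and at 0 to 19.96 CPM (median 0) in non-cycling cells, and 64 of 66 cycling cells exceeded every non-cycling cell. *Dtl*, the adaptor that marks licensing factors for destruction, was at 51.8 against 0.836 CPM, *Knstrn*, kinastrin of the spindle, at 146.1 against 10.03 CPM, and *Trip13*, which resets the spindle checkpoint, at 64.1 against 4.35 CPM. *Rpp30*, a subunit of RNase P, was at 64.1 against 8.70 CPM and *Aaas*, a nuclear pore protein, at 95.3 against 14.2 CPM. *Il11*, a cytokine of the IL-6 family, was also in this ranking and is given with the secreted factors.

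Of 15 measured genes of CDK inhibition and quiescence, 0 were called higher and 8 lower in cycling cells, beside 10.3% and 16.5% of all genes. Their median was −1.0. On plate 211 alone the median was −1.09, and over the same genes on plate 215 it was 0.48. *Btg2*, an antiproliferative immediate early gene, was at 0 to 610 CPM (median 37.2) in cycling cells and at 3.93 to 1083 CPM (median 212) in non-cycling cells. In 19 of 22 non-cycling cells it exceeded the cycling median, and its summed level was 89.9 against 315 CPM, 3.50-fold lower in cycling cells. *Cdkn1a*, the p21 inhibitor induced by p53, was at 18.5 against 39.5 CPM, with 1 cycling cell holding 50.1% of the counts of its class, and its difference was of opposite sign on plate 215. *Cdkn1b*, the p27 inhibitor, was at 23.3 against 24.3 CPM, and *Cdkn2d*, the p19 inhibitor, at 61.8 against 33.1 CPM. For tdTomato+EGFP+ cells of uninjured cord, *Cdkn1a* stood at 404 CPM and *Btg2* at 1027 CPM. Targets of p53 had 2 of 11 members called lower, close to the 16.5% of all genes, and 0 higher, with a median of −0.70: *Phlda3*, a brake on AKT, was at 9.61 against 36.3 CPM, and *Aen*, a nuclease of the same pathway, at 95.7 against 58.5 CPM.

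RNA content was compared on plate 211, where spike-in RNA (ERCC) had been counted. Gene counts per ERCC count, which follow the RNA of a cell where each well received the same spike-in, were 219 to 5006 with a median of 2030 in 59 cycling cells and 446 to 2295 with a median of 778 in 19 non-cycling cells, a ratio of medians of 2.61. Of the cycling cells, 54 of 59 lay above the non-cycling median, and 2 of 19 non-cycling cells lay above the cycling median. The intermediate cells had a median of 1579. The spike-ins themselves gave a median of 161 counts in cycling and 365 in non-cycling cells. CPM divides out this difference, so a gene at equal CPM had more counts per spike-in count in a typical cycling cell.

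Genes of the nucleolus, where ribosomes are assembled, were higher in cycling cells in 17 of 20 cases, with 0 lower and a median of 1.33. *Npm1*, nucleophosmin, was at 57.6 to 6082 CPM (median 2384) in cycling cells and at 197 to 2454 CPM (median 477) in non-cycling cells; 64 of 66 cycling cells lay above the non-cycling median and 1 of 22 non-cycling cells above the cycling median. Its summed level was 2601 against 649 CPM, 4.01-fold higher. *Ncl*, nucleolin, was at 1390 against 451 CPM, *Nop58*, of the machinery that methylates ribosomal RNA, at 359 against 105.2 CPM, and *Gnl3*, nucleostemin, at 211 against 60.5 CPM. *Polr1b*, a subunit of RNA polymerase I, was not called, at 51.01 against 33.6 CPM.

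The 20 nucleolar genes summed to 912 to 13848 CPM in cycling cells with a median of 6673 and to 757 to 6644 CPM in non-cycling cells with a median of 1454. The non-cycling cells were not uniform for this sum: 4 of 22 stood at 5901 to 6644 CPM and the other 18 at 757 to 2164 CPM. The same 4 cells had the 4 highest replication sums of their class, 2441 to 3939 CPM, while their rule sums were 0 to 30.1 CPM. Their mitosis sums, which include *Tubb5*, were 3765 to 7782 CPM, all above the non-cycling median of 2566 CPM. These 4 cells were singled out after their values were seen. The ribosomal protein genes themselves differed less, with 1 of 82 called higher and 1 lower (median 0.64), and their summed CPM had medians of 73559 in cycling and 45145 in non-cycling cells with ranges of 11483 to 110859 and 22060 to 81299. The list median was 0.67 on plate 211 and 0.0146 on plate 215. On plate 215 the summed CPM had medians of 54585 in cycling and 51433 in non-cycling cells.

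**Figure D3:**
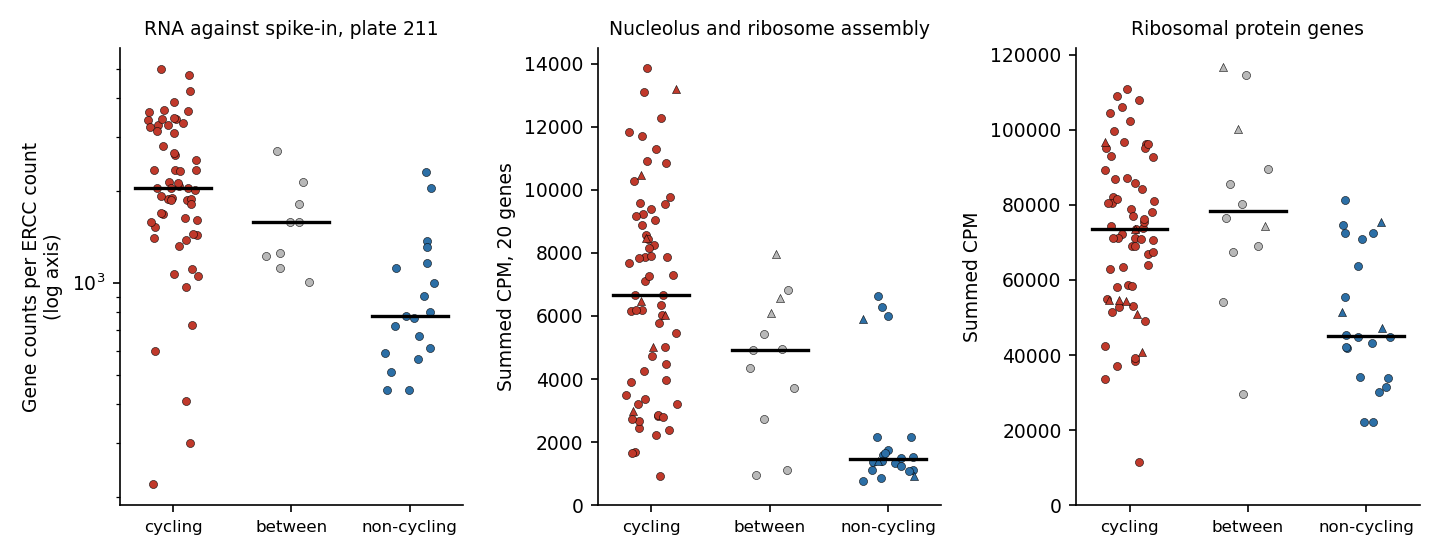
Points are single cells by class, bars the medians, circles plate 211 and triangles plate 215: gene counts per ERCC count on plate 211 (log axis), summed CPM of 20 nucleolar genes, and summed CPM of ribosomal protein genes. Medians per ERCC count are 2030 in cycling and 778 in non-cycling cells, and 4 non-cycling cells stand apart at 5901 to 6644 CPM of nucleolar genes.

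Biosynthetic genes differed by pathway. Of 19 measured genes of serine, one-carbon and branched-chain amino acid metabolism, 10 were called higher and 1 lower, beside 10.3% and 16.5% of all genes. The median was 1.26 (1.26 on plate 211 and 0.25 on plate 215). *Bcat1*, the cytosolic transaminase of branched-chain amino acids, was at 0 to 888 CPM (median 470) in cycling cells and at 0 to 448 CPM (median 70.2) in non-cycling cells. None of 22 non-cycling cells reached the cycling median, and the summed level was 452 against 118.4 CPM, 3.81-fold higher, beside 0.627 CPM in the tdTomato+EGFP+ cells of uninjured cord. *Psat1*, of serine synthesis, was at 290 against 73.4 CPM, *Mthfd2*, of the mitochondrial folate cycle, at 191 against 38.8 CPM, and *Shmt2*, of the same cycle, at 168 against 68.4 CPM. *Slc7a11*, the cystine transporter, was the member called lower, at 120.5 against 431 CPM, with 35.03% of the non-cycling counts in 1 cell. In glycolysis 1 of 16 genes was called higher and 1 lower: *Gapdh* was at 1754 against 874 CPM and *Hk1*, the first kinase of the pathway, at 53.4 against 119.1 CPM. Cholesterol and fatty acid synthesis had 5 of 23 called lower, also near the share of all genes, and 0 higher, among them *Msmo1* at 26.9 against 113.7 CPM.

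*Slc1a3*, the gene whose promoter drives the Cre, was lower in cycling cells. It was at 0 to 649 CPM with a median of 49.3 in cycling cells and at 0 to 3246 CPM with a median of 370 in non-cycling cells. The ranges overlapped, with 16 of 22 non-cycling cells above the cycling median and 5 of 66 cycling cells above the non-cycling median. Summed over cells, *Slc1a3* was at 127.2 CPM (122.6 to 131.99) against 528 CPM (510 to 547), 4.15-fold lower in cycling cells, with log2 differences of −2.12 on plate 211 and −0.94 on plate 215. Of the non-cycling counts, 31.1% were in 1 cell. The tdTomato+EGFP+ cells of uninjured cord held 190 CPM of it. The gene was at 9.41 and 12.02 CPM in cycling and non-cycling tdTomato-EGFP+ cells.

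Perivascular fibroblast genes were lower in cycling cells in 9 of 16 cases and higher in 0, with a median of −1.12. *Apod*, apolipoprotein D, was at 0 to 38972 CPM (median 74.3) in cycling cells and at 0 to 140029 CPM (median 4324) in non-cycling cells. Values were spread widely over the non-cycling cells, 16 of 22 exceeded the cycling median, and the summed level was 1535 against 30450 CPM, with 50.9% of the cycling counts in 1 cell. *Dcn*, the proteoglycan decorin, was at 9.56 to 16376 CPM (median 4291) in cycling cells and at 903 to 48842 CPM (median 13397) in non-cycling cells, 3.30-fold lower in cycling cells over both plates but with a log2 difference of 0.10 on plate 215. *Gsn*, the actin-severing gelsolin, was at 247 against 2846 CPM, with 33.4% of the non-cycling counts in 1 cell. Over both plates the collagen genes *Col1a1* and *Col1a2* missed the size rule, at 3128 against 3743 CPM and 2228 against 3020 CPM. On plate 215 they were at 1516 against 5501 CPM and 1597 against 3963 CPM. *Pdgfra*, a receptor of fibroblasts, was at 325 against 423 CPM over both plates.

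The ranking of lower genes was led by genes that, but for *Slc6a13*, are in no list used here. *Scara5*, a scavenger receptor for ferritin, was at 16.3 against 599 CPM, 36.6-fold lower, and had a count in 17 of 66 cycling and 11 of 22 non-cycling cells, so its level in the non-cycling class came from some of its cells. *Serping1*, the C1 inhibitor of complement, was more widespread. It was at 0 to 2772 CPM (median 49.7) in cycling cells and at 0 to 5375 CPM (median 1263) in non-cycling cells, with 18 of 22 non-cycling cells above the cycling median and 2 of 66 cycling cells above the non-cycling median. *Hsd3b7*, a sterol dehydrogenase, was at 0 to 82.9 CPM (median 13.8) in cycling cells and at 0 to 373 CPM (median 160) in non-cycling cells, and 0 of 66 cycling cells reached the non-cycling median. *Cemip*, which degrades hyaluronan, was at 27.9 against 423 CPM, *Isyna1*, of inositol synthesis, at 124.6 against 1020 CPM, *Efemp1*, the matrix protein fibulin-3, at 133.2 against 937 CPM, and *Slc6a13*, a GABA and taurine transporter, at 32.7 against 207 CPM.

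Pericyte genes were lower in cycling cells in 10 of 13 cases and higher in 0, with a median of −1.59. Among cells with *Col1a1* at 100 CPM or more, a restriction chosen after seeing the data that kept 64 cycling and 19 non-cycling cells, the median was −0.80. *Vtn*, vitronectin, was at 0 to 8741 CPM (median 46.9) in cycling cells and at 0 to 7921 CPM (median 279) in non-cycling cells, with 19 of 22 non-cycling cells above the cycling median. *Kcnj8*, the pore of a potassium channel of pericytes, was at 20.9 against 133.3 CPM, with 49.4% of the non-cycling counts in 1 cell. *Rgs5*, a regulator of G-protein signalling, was at 170 against 155.9 CPM and was detected in 7 cells of each class. Endothelial genes summed to 8.01 to 11226 CPM (median 204) in cycling and to 90.8 to 21317 CPM (median 356) in non-cycling cells. Of 11 measured, 4 were called lower and 0 higher, beside 16.5% and 10.3% of all genes. The highest cell of each class also held 11880 CPM (cycling) and 18165 CPM (non-cycling) of summed pericyte genes. For *Cldn5*, 1 cell of each class held 98.8 and 99.8% of the counts. The part of these cells in the pericyte differences was not tested.

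Contractile and matrix genes of the scar were present in both classes. Of 16 myofibroblast genes 0 were called in either direction, with a median of 0.26 that turned to −1.19 over the same genes on plate 215. *Acta2*, smooth muscle actin, was at 1090 against 858 CPM with 48.5% of the non-cycling counts in 1 cell, and at 488 against 2394 CPM on plate 215. *Tnc*, tenascin C, was at 1086 against 836 CPM, and at 1326 against 2211 CPM on plate 215. Of 16 activated fibroblast genes 4 were called lower and 0 higher (median −0.31, and −1.05 on plate 215), beside 16.5% and 10.3% of all genes. *Spp1*, osteopontin, was among the most abundant transcripts of both classes, at 15.3 to 104860 CPM (median 9651) in cycling and at 39.9 to 97844 CPM (median 5235) in non-cycling cells. *Fn1*, fibronectin, was at 1345 against 1785 CPM with 39.1% of the non-cycling counts in 1 cell, and *Col6a1*, a chain of beaded-filament collagen, at 317 against 791 CPM with 39.99% of the cycling counts in 1 cell. The collagen list had 5 of 15 called lower and 0 higher, beside the same shares of all genes. Its median was −0.26, and −1.60 on plate 215, with *Col3a1* at 4550 against 5399 CPM over both plates. In collagen folding and crosslinking, *Plod2*, a lysyl hydroxylase, was called higher at 63.3 against 26.8 CPM and *Pcolce*, an enhancer of procollagen processing, lower at 863 against 2245 CPM.

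Basement membrane genes had 6 of 16 members called lower and 0 higher, beside 16.5% and 10.3% of all genes, with a median of −0.93. *Lamb2*, the laminin beta 2 chain, was at 0 to 2055 CPM (median 36.5) in cycling cells and at 10.1 to 1314 CPM (median 191) in non-cycling cells, and 21 of 22 non-cycling cells lay above the cycling median. *Lama2*, the laminin alpha 2 chain, was at 53.4 against 213 CPM. *Col4a1*, the collagen of basement membranes, was not called at 681 against 956 CPM. Proteoglycans and elastic fibre genes had 8 of 20 called lower and 0 higher, with a median of −0.94 over both plates and −0.25 on plate 215. *Ogn*, osteoglycin, was among those lower, at 8.13 against 102.7 CPM.

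Secreted factors went both ways, with 6 of 30 called higher and 9 lower, beside 10.3% and 16.5% of all genes. *Il33*, an alarmin cytokine, was at 0 to 10502 CPM (median 513) in cycling cells and at 0 to 1396 CPM (median 99.1) in non-cycling cells. Of the cycling cells 25 of 66 exceeded every non-cycling cell, and the summed level was 1833 against 373 CPM, 4.91-fold higher, with log2 differences of 2.36 and 2.22 on plates 211 and 215. *Fgf7*, a growth factor for epithelia, was at 104.5 against 23.7 CPM, and *Il11* at 142.6 against 19.1 CPM, with 62.3% of the non-cycling counts in 1 cell and a log2 difference of 0.12 on plate 215. *Inhba*, the activin A subunit, was at 509 against 161 CPM, with 61.6% of the non-cycling counts in 1 cell, and *Hbegf*, a ligand of EGFR, at 190 against 72.9 CPM, both with the opposite sign on plate 215. Chemokines were among the lower genes: *Cxcl12*, which holds CXCR4+ cells near stroma, was at 0 to 1479 CPM (median 64.9) in cycling cells and at 0 to 3446 CPM (median 347) in non-cycling cells, 5.38-fold lower over the class. *Ccl2*, which draws monocytes, was at 1028 against 754 CPM and was not called.

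Receptors for growth factors had 10 of 21 members called lower and 0 higher, beside 16.5% and 10.3% of all genes, with a median of −0.56. *Tgfbr2*, the type II TGF-beta receptor, was at 0 to 130.7 CPM (median 19.7) in cycling cells and at 7.57 to 422 CPM (median 117.3) in non-cycling cells. It exceeded the cycling median in 21 of 22 non-cycling cells, and its summed level was 30.7 against 142.5 CPM, 4.64-fold lower. *Egfr*, the receptor of *Hbegf*, was at 33.8 against 87.8 CPM, *Osmr*, the oncostatin M receptor, at 139.3 against 295 CPM, and *Ddr1*, a collagen receptor kinase, at 5.34 against 34.5 CPM. *Pdgfrb*, by contrast, was close between the classes, as given above.

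Interferon response and MHC class I genes were lower in cycling cells in 15 of 19 cases, higher in 0, with a median of −1.39. Per cell the 19 genes summed to 613 to 10954 CPM (median 1466) in cycling cells and to 1269 to 28705 CPM (median 3057) in non-cycling cells. *H2-K1*, a classical MHC class I heavy chain, was at 0 to 515 CPM (median 39.4) in cycling cells and at 13.4 to 2604 CPM (median 178) in non-cycling cells, with 20 of 22 non-cycling cells above the cycling median. Its summed level was 67.99 against 292 CPM, and *B2m*, the shared light chain, was at 297 against 572 CPM and missed the size rule. *Gbp2*, an interferon-induced GTPase, was at 16.7 against 160 CPM, with 47.2% of the non-cycling counts in 1 cell. *Ifit3*, another interferon target, was at 52.1 against 489 CPM, with 82.8% of the non-cycling counts in 1 cell. *Irf1*, a transcription factor of the response, was at 98.9 against 111.7 CPM.

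Immediate early genes, which respond within minutes to stimulation including tissue dissociation, had 6 of 20 members called lower and 2 higher, with a median of −0.64. Over all genes the shares were 16.5% lower and 10.3% higher. *Fos* was at 2.08 to 5497 CPM (median 796) in cycling cells and at 7.85 to 6616 CPM (median 2654) in non-cycling cells, and 18 of 22 non-cycling cells lay above the cycling median. *Egr1* was at 214 against 538 CPM, and *Fosl1*, a partner of JUN, was a member called higher at 14.9 against 4.35 CPM. The part of dissociation in these levels was not tested.

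**Figure D4:**
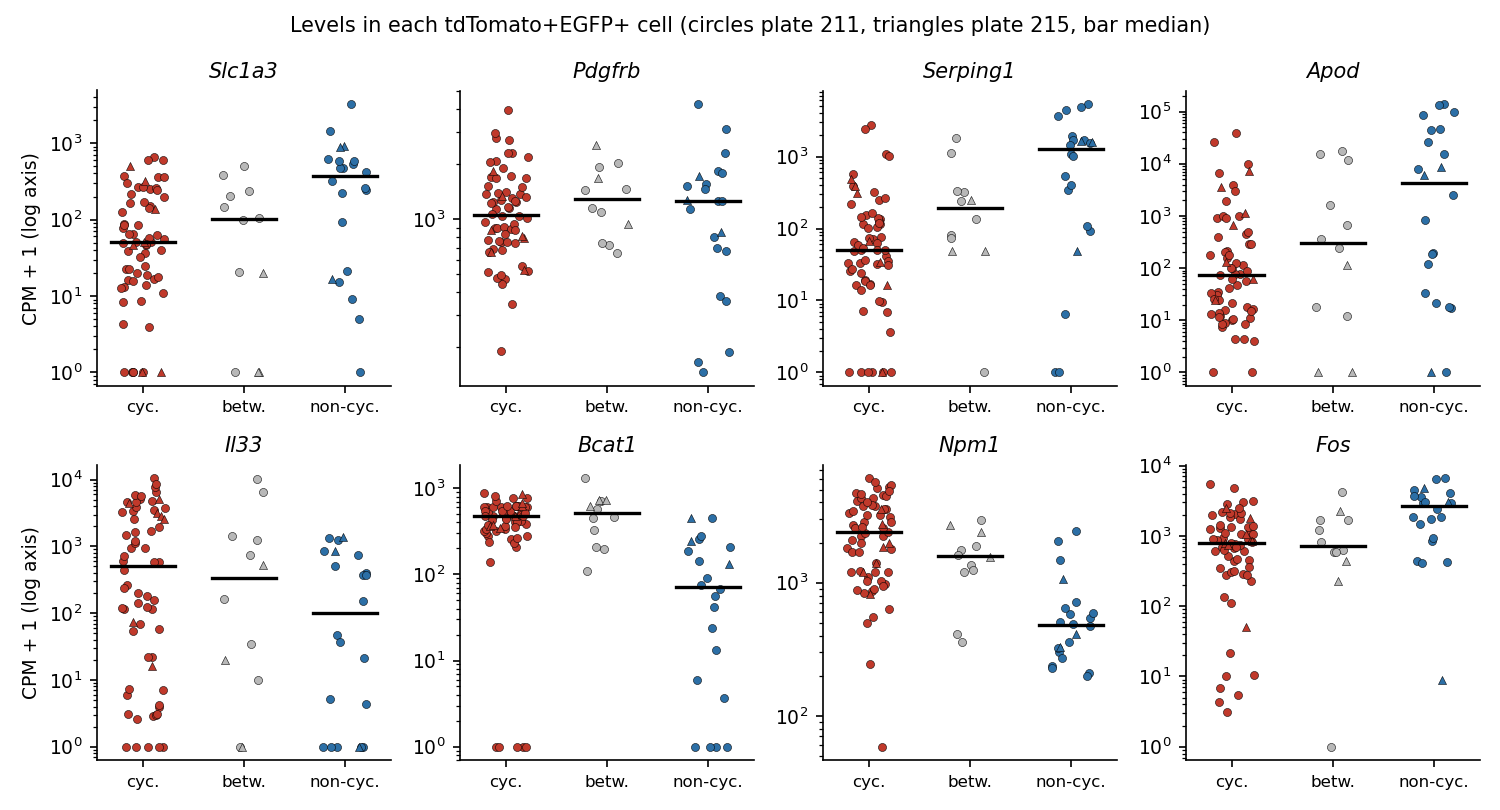
Each panel gives the CPM + 1 of a gene in single cells (log axis) by class, with bars at the medians, circles for plate 211 and triangles for plate 215. *Pdgfrb* is alike in level, *Slc1a3*, *Serping1*, *Apod* and *Fos* have higher medians in non-cycling cells, and *Il33*, *Bcat1* and *Npm1* in cycling cells, with overlap in every panel.

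The tdTomato-EGFP+ cells of the same plates, classed by the same rule, gave values to set beside these. The cell cycle lists there had medians of 2.78 for licensing, 2.12 for the fork, 4.46 for kinetochore and 5.01 for spindle genes. Among the other lists the medians in tdTomato-EGFP+ cells were 0.61 for nucleolar genes (1.33 in tdTomato+EGFP+ cells), 0.32 for serine and one-carbon genes (1.26), −0.63 for pericyte genes (−1.59), −1.46 for perivascular fibroblast genes (−1.12) and −0.33 for interferon and MHC class I genes (−1.39). The interferon median of tdTomato-EGFP+ cells was −1.32 on plate 211 and 0.25 on plate 215. The difference between the 2 sorts was not tested, and each sort is 1 sample. *Serping1* was at 238 CPM in cycling and 989 CPM in non-cycling tdTomato-EGFP+ cells, and *Bcat1* at 140.5 and 14.2 CPM.

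Promoter letters were counted over all genes with a RefSeq window, in the 250 bases before the start and on both strands. An E2F element was taken as TTTCCCGC, TTTGGCGC, TTTCGCGC or TTTGCCGC, a CHR as TTTGAA or TTCGAA, and a CCAAT box as CCAAT; no search word contains another. E2F letters were in 16.95% of the 59 windows of the replication lists (52 of 66 genes matched), in 4.21% of the 95 windows of the mitosis lists (86 genes matched), in 3.37% of the windows of all measured genes and in 1.86% of all 32851 windows. They were also in 13.6% of the 22 windows of the interferon and MHC class I list and in 13.04% of the 23 windows of the nucleolar list. CHR letters were in 36.8% of mitosis windows, 15.3% of replication windows, 12.4% of the windows of all measured genes and 17.1% of all windows. A CHR together with CCAAT was in 30.5% of mitosis windows, against 8.47% of replication windows, 4.64% of the windows of measured genes and 6.02% of all windows. It was in 6.45% of the windows of genes called higher outside the cell cycle lists and in 3.34% of those called lower. A match is a run of letters and not a bound site, and a window without one says only that these letters are not in it.

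**Figure D5:**
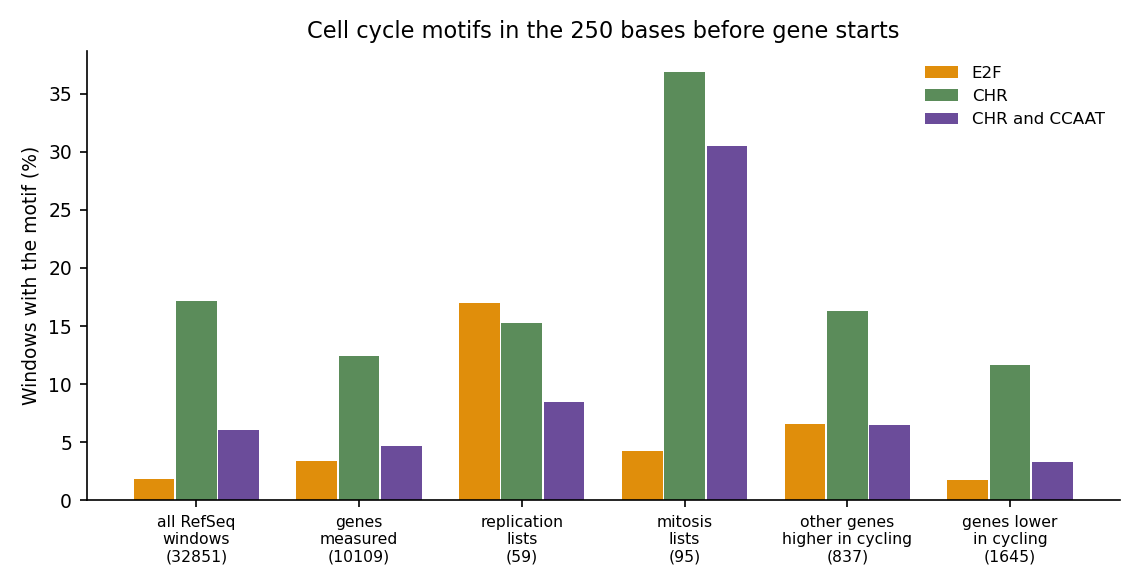
Bars give the percentage of promoter windows (250 bases before the RefSeq start) that hold E2F letters, CHR letters, or CHR and CCAAT letters, for sets of genes with the number of windows in parentheses. Replication lists have 16.95% with E2F and mitosis lists 30.5% with CHR and CCAAT, against 1.86% and 6.02% of all windows.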

How the data were processed

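Single cells had been sorted into wells and sequenced by Smart-seq3, which covers whole transcripts. The deposited values are raw counts, 1 column a cell, in build mm10 per the submitters' processing notes. The aligner, the annotation and the nature of a count (read or molecule) are not given in the sources used here. Columns of 503 cells matched the labels, and 1465 other cell columns were not used. The 92 ERCC spike-in rows (0.0314% of counts) were left out of library sizes.

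Classes were cut by the summed CPM of 5 genes. Members, lists and thresholds were chosen with earlier results of these data known. Counts were summed per class, scaled to CPM and compared as log2(CPM + 1), with no test, since no animal is named and each group is 1 sample. The genes named are the 5 rule genes, *Slc1a3*, *Pdgfrb*, members of the gene lists, and in each direction 15 genes with the largest difference that reached 50 CPM and were detected in at least 30% of cells of the higher class, with no cell holding over 25% of its counts, and the same sign on both plates and in the mean of the cells' own CPM, once over all genes and once without cell cycle genes; not all are printed. No doublet caller was run, as cells were sorted singly into wells, so wells that held 2 cells were not searched for. The study's upper limit of 1200 genes per cell would remove all 100 deep cells and was not applied. Alternatives were another scaling, pseudocount, CPM minimum, threshold, depth and plate. The script was tested on simulated data. Python 3.11.15, pandas 2.3.3, numpy 2.4.6 and scipy 1.17.1 were used. Promoter windows came from RefSeq, build GRCm38.p6, matched by symbol.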

Additional observations from a re-analysis of the deposited data

Results flagged for a closer look

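For 3 gene lists, cycling minus non-cycling medians had opposite signs in the 2 sorts, on plate 211 and on plate 215 alike. The difference between the sorts was not tested, each sort is 1 sample, and none of the medians over both plates reaches a log2 difference of 1. On plate 215 alone the activated fibroblast median was −1.05 in tdTomato+EGFP+ cells. With TMM and DESeq2 factors the tdTomato+EGFP+ medians became −0.50 and −0.48 for p53 targets, −0.07 and −0.05 for activated fibroblast genes, and 0.06 and 0.08 for collagen folding, so the last sign depends on the scaling. Targets of p53 had a median of −0.70 in tdTomato+EGFP+ cells and 0.21 in tdTomato-EGFP+ cells. Activated fibroblast genes had a median of −0.31 in tdTomato+EGFP+ cells and 0.06 in tdTomato-EGFP+ cells. Genes of collagen folding and crosslinking had a median of −0.19 in tdTomato+EGFP+ cells and 0.21 in tdTomato-EGFP+ cells.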

How the results depend on the processing

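The count of genes higher in cycling cells, 1041, became 1692 with TMM factors, 1753 with DESeq2 factors, 655 with a pseudocount of 10 CPM, 1577 with no CPM minimum, 525 with a minimum of 50 CPM and 2197 on plate 215 alone, and stayed within 1.5 times under the other 10 alternatives. The count of genes lower in cycling cells, 1668, became 867, 3047 and 553 with that pseudocount, no minimum and the minimum of 50 CPM, and stayed within 1.5 times under the other 13. The cycling share was 53.8% on plate 215. The ratio of RNA content stayed within the spread of cells under both alternatives run (2.03 and 2.64). On plate 215 alone, which has 7 cycling and 3 non-cycling cells, signs turned among the lists and genes past a log2 difference of 1 for the CDK inhibitor list (0.14 over genes measured on that plate), the astrocyte and oligodendrocyte list of 2 genes (0.0021), *Cdkn1a* (2.07), *Sesn1* (3.26), *Dcn* (0.10), *Inhba* (−1.11), *Hbegf* (−0.61), *Ccl11* (0.50) and *S100b* (1.05). *Cldn5* turned to 0.20 among cells with *Col1a1* at 100 CPM or more and to 0.25 among cells with *Cldn5* under 1000 CPM, restrictions chosen after seeing the data. The cause was not tested. No paired analysis was possible because the replicate numbers only name cells in accession order and each group is 1 sample; plates, which the classes share, are given separately. A gene with no count in the non-cycling class may be at up to 0.502 CPM there.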

Other observations

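Genes of the respiratory chain were at close levels in the classes, with 0 of 79 measured called higher and 2 lower and a median of 0.25. *Tubb3*, a tubulin best known from neurons, was at 470 CPM in cycling and 176 CPM in non-cycling cells, beside 5.34 CPM in tdTomato+EGFP+ cells of uninjured cord, and was detected in 63 of 66 cycling and 10 of 22 non-cycling cells. *Lif*, a cytokine of the IL-6 family, was at 23.04 against 5.69 CPM and was detected in 30 of 66 cycling and 6 of 22 non-cycling cells. *S100b*, a glial calcium-binding gene, was at 0.898 against 36.6 CPM, with 57.99% of the non-cycling counts in 1 cell. *Ecm2*, a matrix gene lower in cycling cells at 9.43 against 81.1 CPM, stood at 480 CPM in tdTomato+EGFP+ cells of uninjured cord.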
